A study of Mus musculus with 6 samples.

Results

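The genes examined were 32 markers of the enteric nervous system, the network of neurons and glial cells within the gut wall, read in descending colon from wild-type mice and from Muc2-/- mice. They were taken by gene name from a list chosen with earlier results of these data known. Counts over them are therefore descriptions of a selected set. All 32 had a row among the 55849 genes of the count table. For the account below they were ordered by role into 16 general neuron genes, 7 genes of transmitter synthesis, neuropeptides or the calcium-binding protein calretinin, 4 genes of glia, and 5 genes shared by neurons, glia and their progenitors. Of the 16107 genes with enough counts to be tested, 31 were members. The gene that was not tested was Th.

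The study compared untreated wild-type C57BL/6 mice with Muc2-/- mice, all aged 12 weeks, with 3 libraries in each group. The product of Muc2 is the mucin that forms the gel over the colon surface, and its loss in mice leads to spontaneous colitis. Polyadenylated RNA was sequenced in read pairs. The sample titles call the material crypts while the protocols describe colon tissue. The labels do not describe the Muc2 allele, the background strain of the Muc2-/- mice, sex or batch, and do not state how many animals each numbered replicate holds, so every p-value here rests on the spread among libraries, which may be technical.

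Enteric neurons lie in a plexus between the muscle layers and in another beneath the mucosa, and they drive peristalsis, secretion and blood flow. Inhibitory motor neurons release nitric oxide and the peptide VIP, and excitatory motor neurons release acetylcholine and tachykinins. Enteric glia wrap the neurons and send processes into the mucosa, and both cell types descend from neural crest cells that depend on RET and endothelin receptor signalling. A preparation of crypts alone would hold few neuron cell bodies. In bulk RNA, fewer cells of a type and less RNA per cell cannot be told apart.

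Of the 32 genes, 21 had a promoter entry among the RefSeq sequences of GRCm38.p6, each 250 bases before to 50 after a start site, in 26 windows. The windows are shown for 3 transmitter genes that the results turn on: Vip and Nos1, the pair that marks inhibitory motor neurons, and Gal, whose groups overlapped. Each is written 5′ to 3′ on the strand of the gene, and capitals mark TGACG or its reverse complement CGTCA, the 5-base core of the cyclic AMP response element.
Vip, chr10:5638968-5639267, plus strand: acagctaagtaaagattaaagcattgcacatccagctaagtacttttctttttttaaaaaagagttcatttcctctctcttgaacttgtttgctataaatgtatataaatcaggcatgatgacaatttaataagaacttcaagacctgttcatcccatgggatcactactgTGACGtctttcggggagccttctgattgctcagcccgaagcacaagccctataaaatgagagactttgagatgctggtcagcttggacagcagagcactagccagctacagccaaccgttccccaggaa
Nos1, chr5:117866589-117866888, plus strand: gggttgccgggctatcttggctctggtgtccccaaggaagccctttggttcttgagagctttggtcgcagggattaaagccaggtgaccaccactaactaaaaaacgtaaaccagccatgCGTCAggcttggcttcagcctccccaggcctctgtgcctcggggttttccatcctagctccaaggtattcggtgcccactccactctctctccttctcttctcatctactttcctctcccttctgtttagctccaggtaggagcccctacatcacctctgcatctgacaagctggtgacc
Gal, chr19:3414495-3414794, minus strand: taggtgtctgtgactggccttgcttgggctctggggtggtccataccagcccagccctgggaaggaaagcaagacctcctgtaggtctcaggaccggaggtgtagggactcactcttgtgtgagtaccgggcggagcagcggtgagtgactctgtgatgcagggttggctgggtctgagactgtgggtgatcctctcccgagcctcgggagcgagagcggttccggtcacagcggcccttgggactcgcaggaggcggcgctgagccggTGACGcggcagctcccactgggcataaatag
Counted from the start site, the core stood at position -79 in Vip, -130 in Nos1 and +20 in Gal. It was found on either strand in 12 of the 26 windows, which is 46.2%, and in 20.8% of 32851 windows of the same length. These 12 windows belonged to 10 genes: Chat, Ednrb, Elavl4, Foxd3, Gal, Hand2, Nos1, Sncg, Th and Vip. Because 9 motifs were searched after the expression values were known, this is a description of letters and not of binding. The full palindrome TGACGTCA, which contains the core, was in the windows of Foxd3 and Th, 7.69% of the 26 against 1.79% of all windows. The E-box CATCTG was in 34.6% of the members' windows against 17.2% of all windows, and the E-box CAGCTG was in 23.1% against 16.3%. For TAATTA the shares were 11.5% and 5.29%, for CACGTG 7.69% and 7.15%, and for TATAAA 11.5% and 13.6%. The SOX-type words AACAAT and ACAAAG were in 3.85% and 7.69% of the members' windows, against 10.7% and 18.7% of all windows.

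Total counts ran from 16395432 to 20336459 per library. As a check of genotype, Muc2 stood at 2480, 6977 and 2629 CPM (counts scaled to the library total with TMM factors) in wild-type 1, 2 and 3 against 757, 1021 and 942 CPM in Muc2-/- 1, 2 and 3. The groups did not overlap and the Muc2-/- libraries were lower, but Muc2 reads remained in all 3 of them, at 54.0 to 74.7 FPKM. The gene itself was not called (edgeR log2 fold change -2.15, SE 0.47, adjusted p = 0.103). Libraries differed within groups as well as between them. Mitochondrial genes took 8.98%, 5.30% and 3.49% of counts in wild-type 1, 2 and 3 against 3.50%, 1.04% and 3.30% in Muc2-/- 1, 2 and 3. The 32 members together took 0.137%, 0.0811% and 0.0372% of counts in the wild-type libraries and 0.0265%, 0.0258% and 0.0216% in the Muc2-/- libraries. The members' share thus differed more among wild-type libraries than between wild-type 3 and any Muc2-/- library, and the part of the mitochondrial share in this was not tested.

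Every one of the 31 tested members had a negative log2 fold change in Muc2-/- against wild-type, with a median of -2.06, but none passed the threshold after adjustment over all genes. Over all 16107 genes the median was -0.01 and 50.9% were negative. edgeR's quasi-likelihood test with Benjamini-Hochberg adjustment at 0.05 called 0 of 31 members, where 0.0186% of all tested genes were called lower. At an unadjusted p under 0.05 it gave 23 members lower and 0 higher, beside 12.7% of all genes lower. DESeq2 called 21 members lower after adjustment, beside 6.8% of the genes it tested. In 18 members all Muc2-/- libraries lay below all wild-type libraries, which was so for 15.2% of all tested genes. The filter on low values stood at 0.576 CPM in 3 libraries. Of the 31 tested members 25 reached that level in all 3 Muc2-/- libraries. The other 6 (Elavl3, Chat, Sox10, Foxd3, Gfra1 and Gfra3) passed only with the help of wild-type libraries, so a negative difference was favoured for them by the filter, and the counts and medians over tested members are given as descriptions.

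The adjusted calls turned on wild-type 3 and on the settings of the test. Without that library, edgeR called 19 members lower, beside 5.68% of 16788 genes, whereas leaving out any other single library gave 0. With all libraries, edgeR called 21 members lower when the filter on low counts was left out, beside 3.04% of 26830 genes, and 15 with the replicate number as a block, beside 2.78% of 16107 genes. Calls over all genes in both directions went from 20 to 1199 and 673 in these fits, so the whole table moved and not the members alone. In 29 of the 31 tested members wild-type 1 was highest of its group and wild-type 3 lowest. The median ratio of wild-type 1 to wild-type 3 over all 31 was 4.20. The median ratio of the wild-type mean to the Muc2-/- mean was 4.17, so the wild-type libraries spanned about as wide a range as the groups. Wild-type 3 still exceeded the mean of the Muc2-/- libraries in 26 of 31 members, and its median ratio to that mean over all 31 was 1.54. Among the Muc2-/- libraries, Muc2-/- 2 was highest in 18 members and Muc2-/- 3 lowest in 18.

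**Figure D1:**
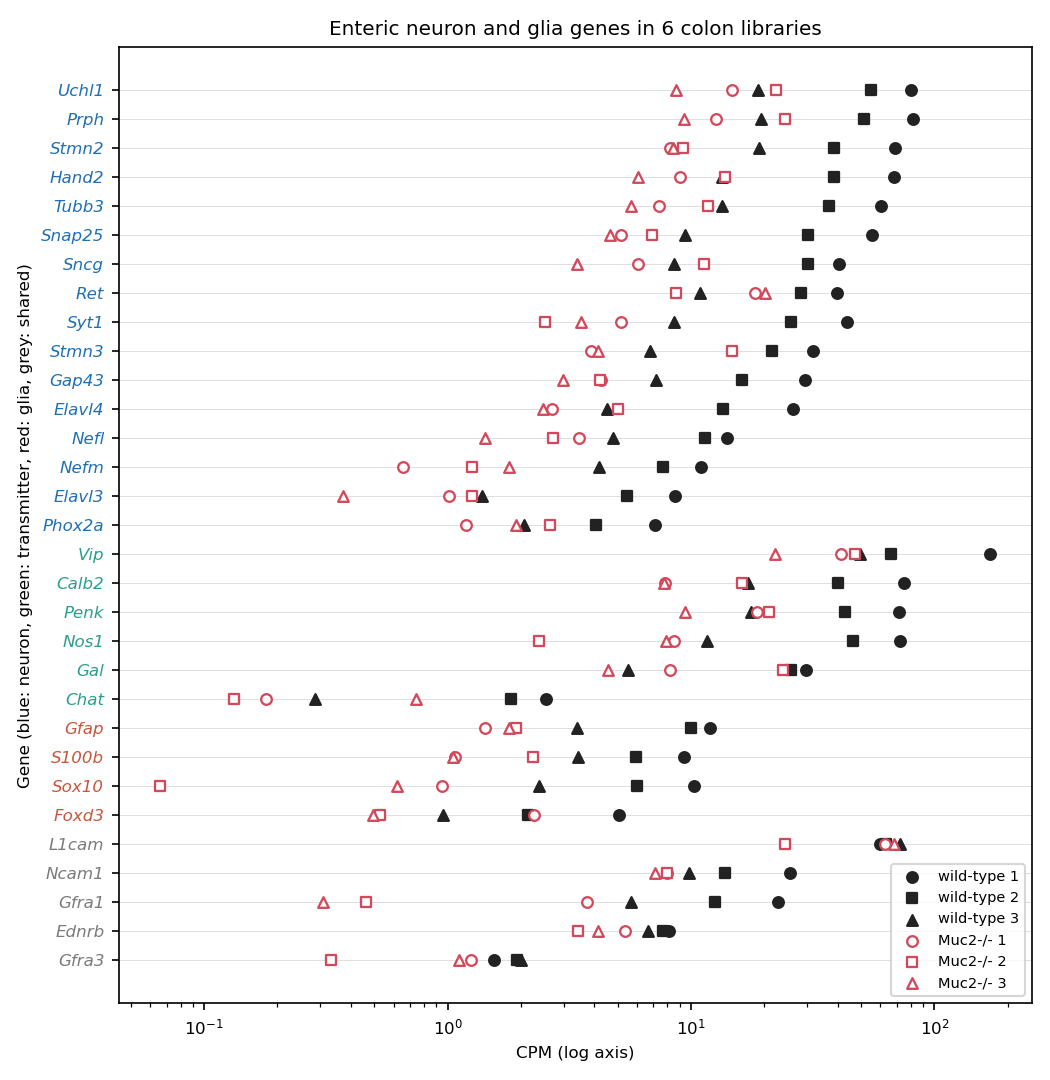
CPM of the 31 tested members (log axis) in each library, with filled black symbols for wild-type and open red symbols for Muc2-/-, and gene names coloured by role. Wild-type 1 is the rightmost black symbol in 29 of 31 rows, wild-type 3 lies closest to the red symbols in most rows, and 18 rows have no overlap between the groups.

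Levels were compared between genes in FPKM, which divides by gene length. In wild-type colon the highest means belonged to Uchl1 (30.9 ± 18.1 FPKM, SD, n = 3), Sncg (30.5 ± 18.5), Vip (27.5 ± 18.3), Penk (26.4 ± 15.7), Gal (25.2 ± 15.8), Prph (24.9 ± 14.8) and Calb2 (24.8 ± 15.9). These SDs hold library differences that the genes share, so they do not decide the order of the 7 neighbours. Uchl1 lay above Prph and Calb2 in every wild-type library. Differences between genes were not tested. Tubb3 (19.3 ± 12.0), Stmn3 (17.3 ± 10.6), Hand2 (16.7 ± 11.2), Gap43 (11.3 ± 7.0) and L1cam (8.78 ± 1.06) came next, and the remaining 20 genes lay under 8 FPKM. The 4 glial genes took ranks 15, 23, 24 and 28 of 32, from S100b at 4.14 ± 1.89 FPKM to Foxd3 at 1.14 ± 0.868. At the bottom were Elavl3 (0.731 ± 0.504), Chat (0.323 ± 0.237) and Th (0.0303 ± 0.0525). In Muc2-/- colon Gal came first at 15.7 ± 13.4 FPKM, followed by Vip (10.9 ± 3.93), Penk (10.1 ± 3.82) and Uchl1 (9.39 ± 4.31). Vip lay above Penk in every Muc2-/- library, whereas Gal lay above Vip in Muc2-/- 2 alone.

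Among general neuron genes, the regulators came first. Hand2, a bHLH factor required for enteric neuron differentiation, had 68.5, 38.5 and 13.4 CPM in wild-type 1, 2 and 3 against 8.99, 13.8 and 6.06 CPM in Muc2-/- 1, 2 and 3 (log2 fold change -2.06, SE 0.57, adjusted p = 0.115). Its highest Muc2-/- library lay just above wild-type 3, so the groups met at that edge. Elavl4, which encodes the neuronal RNA-binding protein HuD, had 26.3, 13.6 and 4.53 CPM in wild-type and 2.68, 5.02 and 2.47 CPM in Muc2-/-, in the same order of libraries (log2 fold change -2.12, SE 0.63, adjusted p = 0.123). Its relative Elavl3 (HuC) had 8.59, 5.47 and 1.38 CPM and 1.01, 1.26 and 0.371 CPM (log2 fold change -2.54, SE 0.75, adjusted p = 0.124). Elavl3 kept the groups apart by a narrow margin, whereas in Elavl4 Muc2-/- 2 exceeded wild-type 3. Phox2a, a homeodomain factor of autonomic and enteric neurons, had 7.09, 4.07 and 2.05 CPM in wild-type and 1.19, 2.64 and 1.92 CPM in Muc2-/- (log2 fold change -1.20, SE 0.56, adjusted p = 0.268), with overlap. Ret, the GDNF receptor tyrosine kinase of enteric progenitors and neurons, had 39.9, 28.3 and 10.9 CPM in wild-type and 18.3, 8.66 and 20.1 CPM in Muc2-/- (log2 fold change -0.75, SE 0.49, adjusted p = 0.420). For Ret, Muc2-/- 1 and 3 lay above wild-type 3 and Muc2-/- 2 was lowest of all, so the libraries were interleaved. Hand2 shares its locus with the antisense transcript Hand2os1, and Phox2a overlaps Inppl1 on the opposite strand. Whether strand was used in counting is not stated, so reads of these pairs cannot be told apart.

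Of the 7 cytoskeletal and growth genes, 5 had no overlap between the groups, beside 15.2% of all tested genes with every Muc2-/- library lower. Stmn2, a tubulin-binding protein of growing axons, had 69.2, 38.7 and 19.0 CPM in wild-type and 8.22, 9.25 and 8.41 CPM in Muc2-/-. The 3 Muc2-/- libraries lay close together and all below wild-type 3, and Stmn2 had the smallest adjusted p of the 31 (log2 fold change -2.29, SE 0.44, adjusted p = 0.0963). Gap43, a growth cone protein, had 29.4, 16.2 and 7.2 CPM in wild-type and 4.29, 4.23 and 2.97 CPM in Muc2-/- (log2 fold change -2.20, SE 0.50, adjusted p = 0.103). Tubb3, the neuronal beta-tubulin, had 60.2, 36.9 and 13.4 CPM and 7.38, 11.8 and 5.69 CPM (log2 fold change -2.15, SE 0.54, adjusted p = 0.103). Neither gene had overlapping groups, but in Tubb3 the distance between wild-type 3 and Muc2-/- 2 was small. The neurofilament genes Nefl and Nefm encode the light and medium subunits of the axonal intermediate filament. Nefl had 14.1, 11.4 and 4.77 CPM in wild-type and 3.45, 2.71 and 1.42 CPM in Muc2-/- (log2 fold change -1.99, SE 0.51, adjusted p = 0.105), and Nefm had 11.0, 7.66 and 4.20 CPM and 0.655, 1.26 and 1.79 CPM (log2 fold change -2.62, SE 0.54, adjusted p = 0.101). Both had no overlap, although the genes overlap each other on opposite strands and their reads may be shared. Prph, the peripheral intermediate filament protein peripherin, had 81.5, 51.4 and 19.4 CPM in wild-type and 12.6, 24.3 and 9.33 CPM in Muc2-/- (log2 fold change -1.72, SE 0.54, adjusted p = 0.140). Stmn3, a second stathmin, had 31.7, 21.6 and 6.77 CPM and 3.87, 14.7 and 4.14 CPM (log2 fold change -1.40, SE 0.68, adjusted p = 0.283). In both Prph and Stmn3, Muc2-/- 2 lay above wild-type 3 and clearly above the other Muc2-/- libraries.

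The cytosolic and synaptic genes followed the same layout. Uchl1, the neuronal ubiquitin hydrolase also known as PGP9.5, had 80.4, 55.1 and 18.9 CPM in wild-type and 14.7, 22.3 and 8.65 CPM in Muc2-/- (log2 fold change -1.76, SE 0.54, adjusted p = 0.131). Sncg, gamma-synuclein, had 40.6, 30.3 and 8.49 CPM and 6.07, 11.3 and 3.40 CPM (log2 fold change -1.93, SE 0.62, adjusted p = 0.142). In both genes only Muc2-/- 2 reached past wild-type 3. Snap25, a SNARE protein of synaptic vesicle fusion, had 55.5, 30.4 and 9.44 CPM in wild-type and 5.18, 6.94 and 4.64 CPM in Muc2-/- (log2 fold change -2.51, SE 0.58, adjusted p = 0.103). Syt1, the calcium sensor of vesicle release, had 43.9, 25.6 and 8.54 CPM and 5.18, 2.51 and 3.52 CPM, which was 6.97-fold lower in the Muc2-/- mean (log2 fold change -2.79, SE 0.59, adjusted p = 0.101). Neither Snap25 nor Syt1 overlapped between groups. Over the 16 general neuron genes the median log2 fold change was -2.09. Of these, 13 had an unadjusted p under 0.05 (12.7% of all genes lower), DESeq2 called 13 (6.8%), and 8 had no overlap (15.2%).

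**Figure D2:**
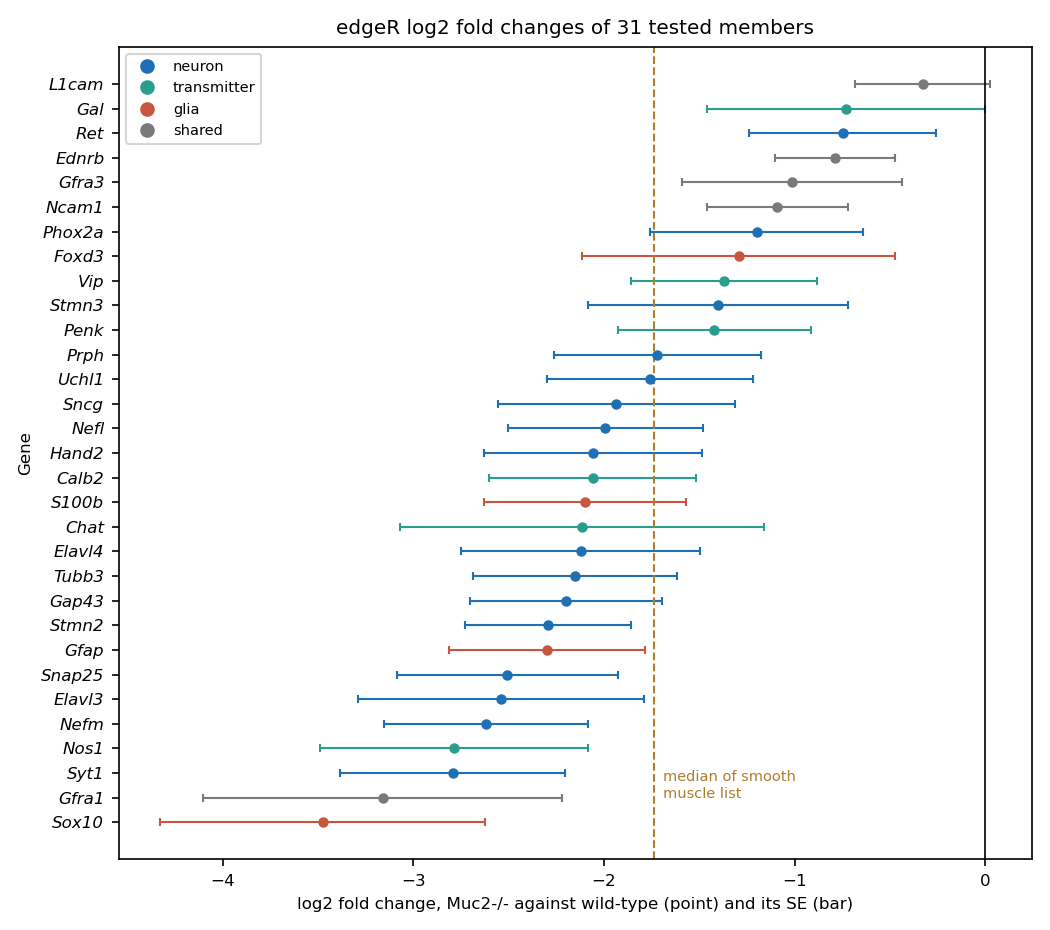
edgeR log2 fold changes (Muc2-/- against wild-type) with SE for the 31 tested members, coloured by role, with the median of 25 smooth muscle genes as a dashed line. All points lie left of 0, from -3.48 for Sox10 to -0.33 for L1cam. The bar of 1 SE passes 0 slightly for L1cam and ends almost at 0 for Gal.

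Log2 fold changes of the 3 inhibitory transmitter genes ran from -2.79 to -0.73, and differences between the genes were not tested. Nos1, the neuronal nitric oxide synthase (ENSMUSG00000029361, placed by the count table at chromosome 5, 117919097 to 118096905), had 72.1, 46.5 and 11.6 CPM in wild-type 1, 2 and 3 against 8.51, 2.38 and 7.91 CPM in Muc2-/- 1, 2 and 3. Every Muc2-/- library lay below wild-type 3, and Muc2-/- 2 was the lowest by a wide margin. The Muc2-/- mean was 6.93-fold lower (log2 fold change -2.79, SE 0.70, adjusted p = 0.104). Vip, vasoactive intestinal peptide (chromosome 10, 5589218 to 5597617 in the count table), had 170.0, 66.0 and 49.7 CPM in wild-type and 41.4, 47.0 and 22.1 CPM in Muc2-/-. Here wild-type 1 stood far above the rest, Muc2-/- 2 came within a few CPM of wild-type 3, and the mean was 2.59-fold lower (log2 fold change -1.37, SE 0.49, adjusted p = 0.171). Gal, the peptide galanin (chromosome 19, 3459915 to 3464544), had 29.6, 25.7 and 5.53 CPM in wild-type and 8.22, 23.9 and 4.57 CPM in Muc2-/- (log2 fold change -0.73, SE 0.73, adjusted p = 0.603). Gal overlapped: Muc2-/- 2 was close to wild-type 2, and wild-type 3 lay below Muc2-/- 1.

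Transmitter genes were then set against the mean log2 CPM of the 16 general neuron genes of the same library. Vip lay above that mean by 2.25 ± 0.515 (SD, n = 3) in wild-type and 2.84 ± 0.315 in Muc2-/-. For Nos1 the differences were 1.14, 1.18 and 0.60 in wild-type against 0.86, -1.36 and 1.04 in Muc2-/-. Only Muc2-/- 2 departed, with the other two inside the wild-type range or close to it. The ratio of Nos1 to Vip in FPKM was 0.129, 0.215 and 0.0714 in wild-type against 0.0628, 0.0154 and 0.109 in Muc2-/-, so the groups overlapped. Gal relative to the general neuron genes was -0.14, 0.32 and -0.45 in wild-type against 0.81, 1.91 and 0.26 in Muc2-/-, also with overlap and with the highest value in Muc2-/- 2. With 3 libraries against 3 an exact two-sided permutation test cannot go below 0.1, and these ratios were left as descriptions.

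The cholinergic and co-expressed genes included the least abundant tested member. Chat, choline acetyltransferase, had 2.55, 1.82 and 0.286 CPM in wild-type and 0.179, 0.132 and 0.742 CPM in Muc2-/-, from 104 counts in all (log2 fold change -2.11, SE 0.95, adjusted p = 0.256). Wild-type 3 and the Muc2-/- libraries were all under 1 CPM and overlapped. Chat shares its locus and strand with Slc18a3, the vesicular acetylcholine transporter, which had 555 counts. Calb2, the calcium-binding protein calretinin, found in excitatory motor neurons and interneurons, had 74.8, 40.2 and 17.2 CPM in wild-type and 7.80, 16.2 and 7.73 CPM in Muc2-/- (log2 fold change -2.06, SE 0.54, adjusted p = 0.106), with Muc2-/- 2 just below wild-type 3. Penk, the precursor of enkephalins that excitatory motor neurons co-release, had 71.4, 42.8 and 17.7 CPM and 18.8, 21.0 and 9.46 CPM (log2 fold change -1.42, SE 0.51, adjusted p = 0.171). Penk overlapped, because Muc2-/- 1 and 2 exceeded wild-type 3. Relative to the general neuron genes, Calb2 lay at 1.11 ± 0.121 in wild-type and 1.03 ± 0.309 in Muc2-/- (log2, SD, n = 3), Penk at 1.13 ± 0.0732 and 1.67 ± 0.354, and Chat at -3.77 ± 0.450 and -3.64 ± 1.3. Penk was the only one of the 6 tested transmitter genes whose relative values did not overlap between groups, each Muc2-/- library being higher. Over these 6 genes the median log2 fold change was -1.74. An unadjusted p under 0.05 held for 4 (12.7% of all genes lower), DESeq2 called 4 (6.8%) and 3 had no overlap (15.2%).

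Th, tyrosine hydroxylase of catecholamine synthesis, had 4 counts in wild-type 1 and 0 in the other 5 libraries. A count of 0 allows up to 0.143 to 0.198 CPM, depending on the library, from a limit of 3 counts that covers counting error only. A difference in Th was not detectable at this depth.

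**Figure D3:**
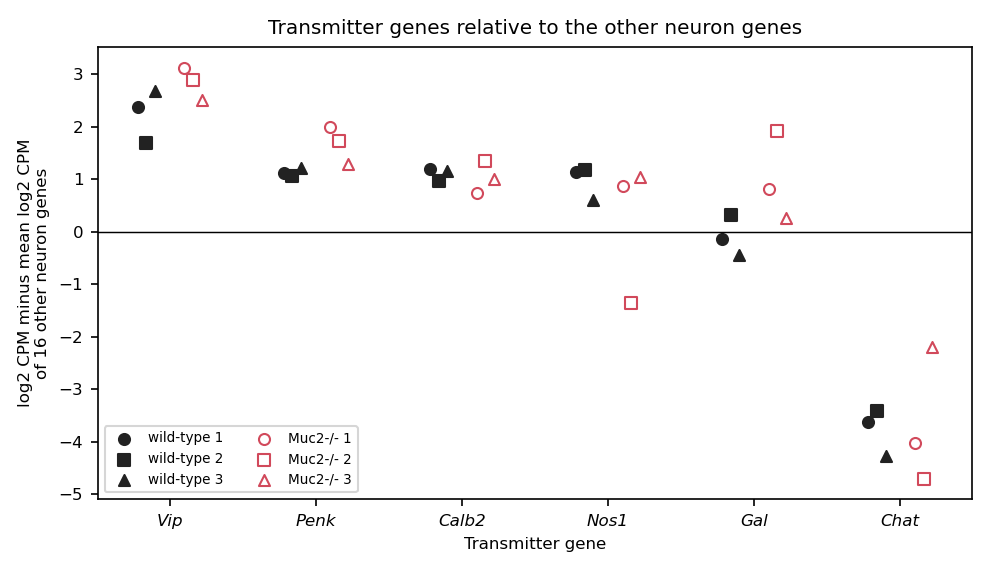
log2 CPM of 6 transmitter genes minus the mean log2 CPM of 16 general neuron genes in the same library, black for wild-type and red for Muc2-/-. Vip stays highest in every library, and Muc2-/- 2 (open square) is lowest for Nos1 and highest for Gal. Penk is higher in all 3 Muc2-/- libraries, by a narrow margin in Muc2-/- 3.

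Of the 4 glial genes, 3 had no overlap between the groups, beside 15.2% of all tested genes with every Muc2-/- library lower. Sox10, the transcription factor of neural crest and glia (chromosome 15, 79039108 to 79049440 in the count table), had 10.2, 5.99 and 2.38 CPM in wild-type and 0.953, 0.0661 and 0.618 CPM in Muc2-/-, where Muc2-/- 2 had 1 count. No library of one group reached the other, and the Muc2-/- mean was 11.4-fold lower, the largest ratio among the 31 tested members, in a gene that passed the filter with the help of wild-type libraries (log2 fold change -3.48, SE 0.85, adjusted p = 0.103). Gfap, the glial intermediate filament protein, had 12.0, 10.01 and 3.39 CPM in wild-type and 1.43, 1.92 and 1.79 CPM in Muc2-/- (log2 fold change -2.30, SE 0.51, adjusted p = 0.103). S100b, a calcium-binding protein of glia, had 9.36, 5.94 and 3.43 CPM and 1.07, 2.25 and 1.05 CPM (log2 fold change -2.10, SE 0.53, adjusted p = 0.104). Both kept the groups apart, and S100b overlaps Dip2a on the opposite strand. Foxd3, a factor of neural crest progenitors, had 5.04, 2.14 and 0.954 CPM in wild-type and 2.26, 0.529 and 0.494 CPM in Muc2-/- (log2 fold change -1.29, SE 0.82, adjusted p = 0.404), and Muc2-/- 1 was above wild-type 2. Of the 4 glial genes 3 had an unadjusted p under 0.05 (12.7% of all genes lower), 3 were called by DESeq2 (6.8%), and the median log2 fold change was -2.20.

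The neuron and glial genes gave medians close to each other. The median log2 fold change was -2.06 over the 22 tested neuron genes, transmitters included, and -2.20 over the 4 glial genes, and the glial values ran from -3.48 to -1.29. Elavl3 and Chat among the neuron genes and Sox10 and Foxd3 among the glial genes passed the filter with the help of wild-type libraries. The order of the medians turned round on log2(FPKM + 1), at -1.25 and -1.14. The mean log2 CPM of the neuron genes minus that of the glial genes was 1.99, 2.02 and 1.73 in wild-type 1, 2 and 3 against 1.86, 2.97 and 2.15 in Muc2-/- 1, 2 and 3. These gave 1.91 ± 0.159 and 2.33 ± 0.579 (SD, n = 3), with Muc2-/- 2 standing apart and Muc2-/- 1 within the wild-type range. The 4 glial genes did not move together in Muc2-/- 2. Against the mean of Muc2-/- 1 and 3 in log2 CPM, Sox10, with 1 count, lay at -2.30 and Foxd3 at -0.90. S100b lay at 1.01 and Gfap at 0.24.

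The 5 shared genes included the receptors and adhesion molecules. Gfra1, the GDNF co-receptor that presents the ligand to RET, had 22.7, 12.6 and 5.67 CPM in wild-type and 3.75, 0.463 and 0.309 CPM in Muc2-/- (log2 fold change -3.16, SE 0.94, adjusted p = 0.125). It was 9.05-fold lower in the Muc2-/- mean without overlap, but Muc2-/- 1 stood well above the other two. Gfra3, the artemin co-receptor, had 1.55, 1.93 and 2.00 CPM and 1.25, 0.330 and 1.11 CPM (log2 fold change -1.02, SE 0.58, adjusted p = 0.356). Ednrb, the endothelin receptor of enteric progenitors and glia, had 8.09, 7.66 and 6.63 CPM and 5.36, 3.44 and 4.14 CPM (log2 fold change -0.79, SE 0.31, adjusted p = 0.210). Gfra3 and Ednrb both kept the groups apart, with much narrower wild-type ranges than the neuron genes. L1cam, an axonal adhesion molecule, had 59.8, 63.5 and 71.9 CPM in wild-type and 62.8, 24.2 and 68.4 CPM in Muc2-/- (log2 fold change -0.33, SE 0.36, adjusted p = 0.638). Wild-type 3 was the highest library for L1cam, only Muc2-/- 2 was low, and without Muc2-/- 2 the log2 fold change was 0.03. Ncam1, a neural adhesion molecule, had 25.5, 13.8 and 9.82 CPM and 7.98, 8.0 and 7.11 CPM (log2 fold change -1.09, SE 0.37, adjusted p = 0.156), without overlap. Of the 5 genes 3 had an unadjusted p under 0.05 (12.7% of all genes lower) and DESeq2 called 1, Gfra1 (6.8% of all genes lower).

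The smooth muscle mean fell from wild-type 1 to wild-type 3 and was lower in Muc2-/-, as the neuron and glial means were. Within the Muc2-/- libraries the 3 means did not share an order. All 25 genes of the smooth muscle list had a negative log2 fold change, with a median of -1.74. Of these, 23 had an unadjusted p under 0.05 (12.7% of all genes lower), DESeq2 called 21 (6.8%) and edgeR 0 after adjustment. Their summed level was 10600 to 36600 CPM in wild-type and 4640 to 8230 CPM in Muc2-/-, and none was at 0. Actg2 and Myl9, the most abundant of them, had log2 fold changes of -1.66 (SE 0.48, adjusted p = 0.121) and -1.76 (SE 0.52, adjusted p = 0.124). The mean log2 CPM of the muscle list was 8.99, 8.23 and 7.26 in wild-type 1, 2 and 3 against 6.88, 6.46 and 5.99 in Muc2-/- 1, 2 and 3, beside 5.13, 4.45 and 2.99 and then 2.41, 2.76 and 2.15 for the neuron genes. The neuron mean minus the muscle mean was -3.97 ± 0.260 in wild-type and -4.01 ± 0.412 in Muc2-/- (log2, SD, n = 3), and the glial mean minus the muscle mean was -5.88 ± 0.102 and -6.33 ± 0.341. Relative to muscle, then, the neuron genes overlapped between groups, while the glial genes overlapped only in that Muc2-/- 3, at -5.99, lay beside wild-type 3, at -6.00. With the muscle mean as a covariate the neuron median became 0.30 and the glial median -0.75, and 15 members turned positive. That fit called 0 genes in the whole table, so the absence of called members says nothing particular to them. The muscle mean does not overlap between groups, so genotype and muscle content cannot be told apart in that fit.

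**Figure D4:**
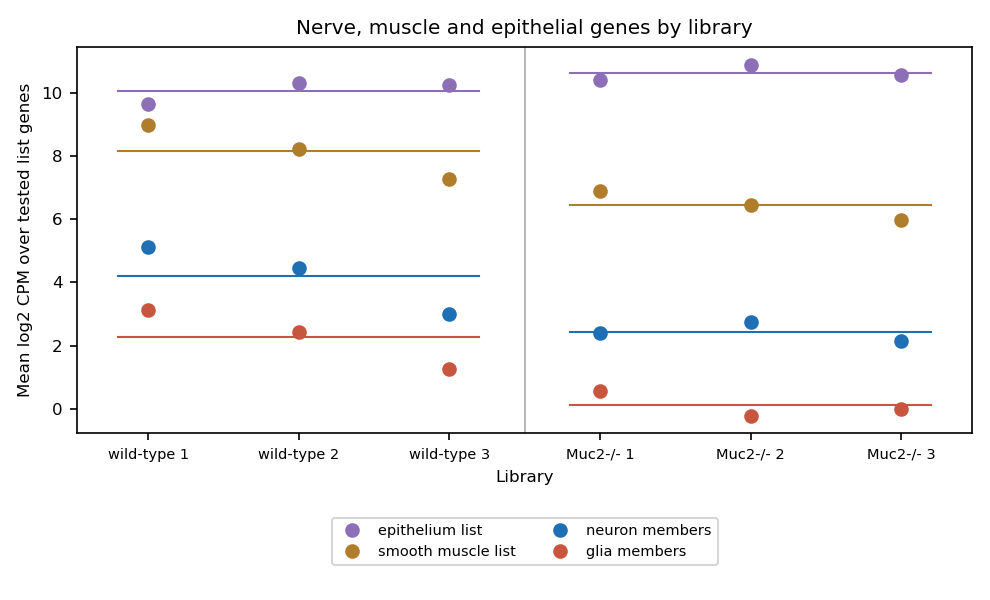
Mean log2 CPM of the tested genes of 4 lists in each library, with horizontal lines at group means. The neuron, glia and smooth muscle means are highest in wild-type 1 and lower in wild-type 3, and lower again in the Muc2-/- libraries, while the epithelium mean is lowest in wild-type 1.

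Other cell types gave further values beside the members. Over all genes 12.7% were lower at an unadjusted p under 0.05, and DESeq2 called 6.8% lower. The 12 epithelial genes had a median log2 fold change of 0.69, with 11 positive and Slc26a3 negative, and summed levels of 13300 to 24200 CPM in wild-type and 28200 to 38500 CPM in Muc2-/-. Krt8 and Lgals4 led by level, at 0.93 (SE 0.44) and 0.77 (SE 0.38). Of the 16 tested leukocyte genes 13 were positive, with a median of 1.04 and summed levels of 737 to 1020 CPM and 3970 to 5300 CPM, and edgeR called Igha (2.65, SE 0.33, adjusted p = 0.0456) and Jchain (2.30, SE 0.25, adjusted p = 0.0286) higher. All 11 fibroblast genes were negative, with a median of -0.83, 841 to 1800 CPM in wild-type and 657 to 992 CPM in Muc2-/-. Dpt had -1.296 (SE 0.32) and Col3a1 -0.23 (SE 0.27). Interstitial cells of Cajal and PDGFRA-positive cells, which relay neural signals to muscle, had a median of -0.12 over 9 genes, with 541 to 965 CPM and 450 to 820 CPM. Of these 6 were negative, down to -2.56, with 4 lower and 0 higher at an unadjusted p under 0.05 and 3 called lower by DESeq2, while the most abundant, Ano1 and Thbs4, stood at 0.04 (SE 0.44) and 0.01 (SE 0.49). The median was -0.40 over 8 endothelial genes (63.3 to 85.2 and 45.3 to 54.8 CPM), -0.95 over 18 enteroendocrine genes (787 to 1260 and 396 to 520 CPM) and -1.28 over 10 tuft cell genes (39.2 to 88.4 and 30.1 to 30.9 CPM). Of the mesothelial genes 3 were negative, among them Msln at -1.89 (SE 0.53), and Krt19, which epithelium also expresses, was positive at 1.26 (SE 0.51), so that the summed level, 1940 to 4660 CPM in wild-type and 5360 to 12400 CPM in Muc2-/-, is mostly Krt19. The named members of the endothelial, enteroendocrine and tuft lists were Pecam1 (-0.66, SE 0.26) and Cldn5 (-0.96, SE 0.61), Pyy (0.18, SE 0.29) and Insl5 (-0.98, SE 0.33), and Alox5ap (-0.73, SE 0.49). No gene of these 8 lists was at 0 in all libraries, and the part of cell composition in the members' values was not tested beyond the muscle comparison above.

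The wider set of enteric neuron genes lay almost entirely in the same direction. This list, like the other lists here, was chosen with earlier results of these data known and is no independent check. Of 57 further neuron genes 52 were tested and 51 were negative, with a median of -2.19, beside 50.9% negative over all tested genes. At an unadjusted p under 0.05, 39 were lower and 0 higher (12.7% of all genes lower), and DESeq2 called 34 lower (6.8%). After adjustment edgeR called 0, and 33 had no overlap (15.2%). The most abundant of them were mixed. Grp and Nmu, which encode gastrin-releasing peptide and neuromedin U, had 19.5 ± 18.8 FPKM and 26.1 ± 22.6 FPKM in wild-type and 1.23 ± 0.523 and 3.15 ± 0.953 in Muc2-/- (SD, n = 3), with log2 fold changes of -4.02 (SE 0.96, adjusted p = 0.103) and -3.09 (SE 0.73, adjusted p = 0.103) and no overlap. Vamp2, of the vesicle fusion machinery, lay at -0.48 (SE 0.25), and the amine-synthesis gene Ddc, which epithelial cells also express, at -0.03 (SE 0.33). Tac1, the precursor of substance P, was the one positive gene, at 12.5 ± 6.38 FPKM in wild-type and 18.8 ± 9.94 in Muc2-/- (log2 fold change 0.56, SE 0.50, adjusted p = 0.555), with overlap.

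Of 26 further glial genes 22 were tested and 21 were negative, with a median of -1.52. At an unadjusted p under 0.05, 12 were lower (12.7% of all genes), DESeq2 called 10 lower (6.8%) and edgeR called 0 after adjustment. Ngfr, the p75 neurotrophin receptor, and Gpr37l1, a glial G-protein-coupled receptor, had 6.28 ± 4.06 and 4.31 ± 3.22 FPKM in wild-type and 0.980 ± 0.451 and 0.917 ± 0.179 in Muc2-/-, without overlap (log2 fold changes -2.70, SE 0.59, and -2.26, SE 0.63). Mal and Cryab lay at -2.16 (SE 0.80) and -1.33 (SE 0.50), both with overlap. Mal had 22.7, 97.5 and 12.4 CPM in wild-type 1, 2 and 3 against 4.17, 8.79 and 16.7 CPM in Muc2-/- 1, 2 and 3, so wild-type 2 stood apart. Erbb3 and Entpd2, both also expressed outside glia, lay at -0.23 (SE 0.42) and 0.02 (SE 0.20), and Entpd2 was the one positive gene. Expression outside neurons and glia was not examined for any listed gene, whichever way it moved.

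Signals that build and maintain the enteric nervous system had a median closer to 0. Of 26 genes of GDNF, endothelin, BMP, neuregulin and neurotrophin signalling 23 were tested, 19 were negative and the median was -0.56. At an unadjusted p under 0.05, 8 were lower and 1 higher (12.7% of all genes lower, and 1326 of 16107 genes higher). DESeq2 called 5 lower and 1 higher (6.8% of all genes lower), and edgeR called 0. Nrtn, the RET ligand neurturin, had 18.9 ± 8.80 FPKM in wild-type and 10.2 ± 6.78 in Muc2-/- (log2 fold change -0.93, SE 0.52, adjusted p = 0.349). Erbb2, Bmp2 and Bmp4 lay within 0.11 of 0, and Ece1, the endothelin-converting enzyme, at -0.26 (SE 0.18) without overlap. Of the 4 positive genes, the 1 with an unadjusted p under 0.05 was Nrg1, neuregulin 1, named after its values were seen. It had 2.49, 3.39 and 1.86 CPM in wild-type against 8.22, 13.1 and 19.7 CPM in Muc2-/-. All 3 Muc2-/- libraries lay above all wild-type libraries, as in 2149 of the 16107 tested genes (log2 fold change 2.40, SE 0.42, adjusted p = 0.0880).

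Receptors for enteric transmitters were the last group. Of 25 genes 21 were tested and 19 were negative, with a median of -1.65. At an unadjusted p under 0.05, 15 were lower (12.7% of all genes), DESeq2 called 12 lower (6.8%) and edgeR called 0 after adjustment. Chrm2, the muscarinic receptor of smooth muscle, had 8.89 ± 5.87 FPKM in wild-type and 1.77 ± 1.25 in Muc2-/- (log2 fold change -2.35, SE 0.65, adjusted p = 0.113), and Gucy1b1, a subunit of the nitric oxide receptor guanylyl cyclase, had 7.74 ± 4.19 and 1.77 ± 0.314 (log2 fold change -2.16, SE 0.47, adjusted p = 0.101). Neither overlapped between groups. Pde5a, which degrades cyclic GMP in muscle, lay at -0.71 (SE 0.28). Vipr1, the VIP receptor found on colonic epithelium, lay at 0.21 (SE 0.31), P2ry1 at -0.05 (SE 0.27) and Adra2a at -0.50 (SE 1.03).

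The deviation of Muc2-/- 2 from the other Muc2-/- libraries went with gene length. Over the 31 tested members the Spearman correlation between listed length and log2 CPM in Muc2-/- 2 minus the mean of Muc2-/- 1 and 3 was -0.629, beside -0.214 over all 16107 tested genes. The points share these 3 libraries and are not independent, so no p is given. The same measure was 0.315 for Muc2-/- 1, 0.47 for Muc2-/- 3 and between -0.108 and 0.13 for the wild-type libraries. The 11 members shorter than 2000 bases had a median deviation of 1.01 in Muc2-/- 2, and the 11 longer than 5000 bases had 0.0851. Nos1 is the longest member at 11151 bases and had a deviation of -1.74, and Gal is the shortest at 788 bases and had 1.94. The contrast of Nos1 and Gal in Muc2-/- 2 goes with their lengths, and length and transmitter type cannot be told apart in this pair. Not every member did so: Sox10, of 3051 bases, had the lowest deviation at -2.30. With a length trend fitted in each library, an alternative added after seeing the data, Nos1 had a log2 fold change of -2.60 and Gal of -0.93, and the neuron and glial medians were -2.06 and -2.22.

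**Figure D5:**
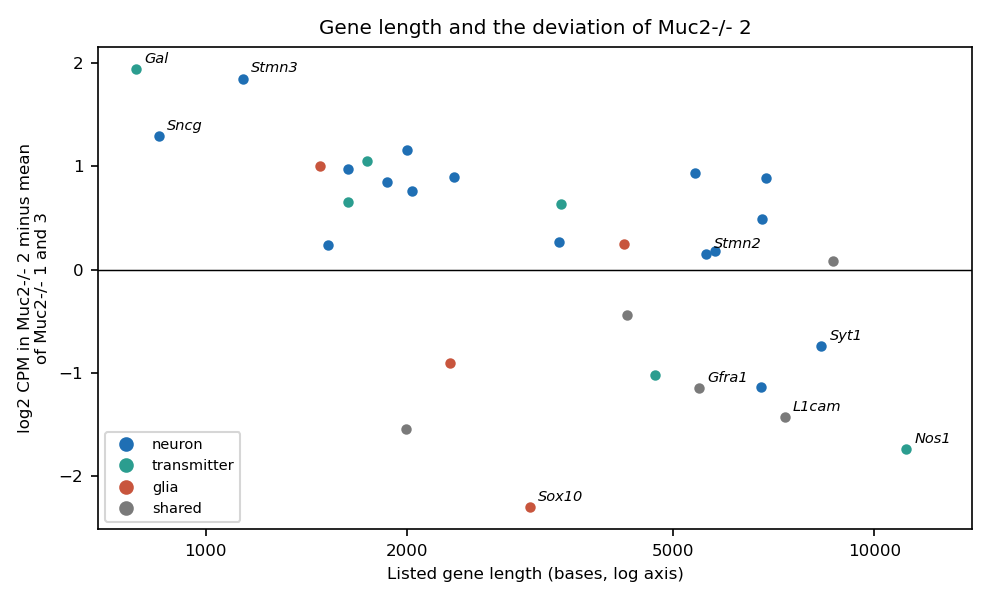
Listed gene length (log axis) against log2 CPM in Muc2-/- 2 minus the mean of Muc2-/- 1 and 3 for the 31 tested members, coloured by role. Short genes such as Gal and Stmn3 lie near 2 and the longest gene, Nos1, lies at -1.74, with Sox10 lowest at -2.30.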

How the data were processed

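RNA of mouse descending colon was measured in 6 libraries, 3 wild-type and 3 Muc2-/-, grouped by their titles. The authors deposited a table of whole-number counts per gene and a table of FPKM, which per the file headers hold 1 column per library. Per the submitters' processing notes the tools were featureCounts 1.5.0-p3, HISAT2 2.0.5, DESeq2 1.20.0 and StringTie 1.3.3b and the build mm10, with no roles stated. The deposited FPKM carry a size factor per library, recovered as 0.860 to 1.135. All 32 members are in GENCODE M21, 32 with the same width but 1 with the same start and end, so the count table's coordinates belong to another assembly and are printed as given. Whether counting was strand-aware is not given.

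The test was edgeR 4.0.16 under R 4.3.3 on the counts (TMM factors, minimum count 10 and total 15, quasi-likelihood, genotype alone, Benjamini-Hochberg over 16107 genes at 0.05). Depth was 16395432 to 20336459 counts, at which 1 count is 0.0477 to 0.0661 CPM. Log2 CPM used a prior count of 2. Replicates differed beyond sampling noise (chi-square per degree of freedom 26.7 to 167). The members and lists were chosen with earlier results of these data known. All members are named. Of each further list the genes past the threshold (up to 4), or else the 2 with the highest mean FPKM, are named, and up to 6 for the neuron, glia, signal and receptor lists. Artn, Erbb3, Gfra2, Ngfr and P2ry1 stand in 2 lists. Nrg1 and Slc26a3 were named after their values were seen. A few genes that this rule names are not reported here. Alternatives were other scaling factors and filters, DESeq2 1.42.0, limma 3.58.1 on voom values or log2 FPKM, a replicate block, a muscle covariate, libraries left out, and a length trend added after seeing the data.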

Additional observations from a re-analysis of the deposited data

How the results depend on the processing

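The count of members called (0 with edgeR) became 21 without the filter on low counts, 21 with DESeq2, 15 with the replicate block and 23 at an unadjusted p under 0.05, where calls over all genes went from 20 to 1199, 1875, 673 and 3379, and ranged from 0 to 19 when 1 library was left out (19 without wild-type 3, 0 without each other library). The cause of these shifts was not tested. It stayed 0 with other scaling factors, the stricter filter, limma on voom values or FPKM, the length trend and the muscle covariate. Same-numbered libraries deviated together with correlations of 0.0937, 0.281 and 0.0606. Wild-type 3 and Muc2-/- 3 correlated slightly better with another number, at 0.0749 and 0.0636. These correlations cannot decide whether the numbers in the titles mark pairs, so it is not known whether the block is a pairing.

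The neuron median of -2.06 ranged from -2.45 to -1.46 with 1 library left out. The glial median of -2.20 ranged from -2.53 to -1.82, and the neuron minus glia difference of 0.14 from 0.07 to 0.36. On log2(FPKM + 1) the medians were -1.25 and -1.14 and the difference -0.11. With a minimum of 1 FPKM in 3 libraries S100b was the only glial gene kept. Its value of -1.33 stood for the glial median, so the difference of -0.12 in that fit rests on 1 glial gene. A pseudocount of 1 FPKM shrinks changes of low genes. With the smooth muscle covariate the neuron median was 0.30, the glial median -0.75 and the difference 1.05. In that fit 15 members turned positive: Elavl3 (0.33), Elavl4 (0.37), Phox2a (0.27), Hand2 (0.36), Ret (0.78), Tubb3 (0.012), Prph (0.38), Stmn3 (0.80), Uchl1 (0.44), Sncg (0.46), Vip (0.50), Gal (1.88), Penk (0.74), Foxd3 (1.54) and Ncam1 (0.17). With 1 library left out, L1cam ranged from -0.568 to 0.034, the latter without Muc2-/- 2. In all other fits run, every tested member was negative. Depth limits Th and the lowest values of Sox10, Chat and Gfra1, where Muc2-/- libraries held few counts.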
